A study of Homo sapiens with 6 samples.

Results

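DNM1, DNM2, DNM3 and DNM1L, the human genes for dynamins and for the related GTPase that divides mitochondria, were followed through RNA sequencing of the ovarian cancer line SKOV3 treated with siRNA against DNM3OS, the long non-coding RNA transcribed from the opposite strand inside DNM3. Members were taken by gene symbol, which gave 4 of the 34834 genes and 74 of the 155518 annotated transcripts in the data. SKOV3 is an established human ovarian cancer line. The knockdown group held 3 samples transfected with 50 nM of an siRNA pool against DNM3OS, and the control group held 3 samples that received 50 nM of a non-targeting siRNA pool. Both groups went through the same lipid transfection and were sequenced at 48 h. A single cell line and a single siRNA pool were used, and nothing says that the samples came from separate cultures, so every p-value here measures only the spread between these samples, which may be technical.

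Dynamins are large GTPases that assemble into collars around the neck of a budding membrane and sever it when they hydrolyse GTP. DNM1 is the form best known from nerve terminals, DNM2 is made in most cell types, and DNM3 is best known from brain and testis. These 3 act in endocytosis with clathrin, its adaptors and proteins that bend membrane, whereas DNM1L (also called DRP1) is recruited from the cytosol to divide mitochondria and peroxisomes. The comparison asked whether the gene that hosts DNM3OS moved with the knockdown, and whether it moved apart from the other dynamins.

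All 4 genes lie on the forward strand of GRCh38. DNM3 spans chr1:171817887-172418466, a stretch of 600580 bp. DNM1 spans chr9:128191655-128255248, DNM1L spans chr12:32679200-32745650 and DNM2 spans chr19:10718055-10833488. DNM3OS lies at chr1:172138397-172144840 on the reverse strand, wholly within intron 14 of DNM3-208, the reference transcript of DNM3 with 21 exons. The reference transcript is the MANE Select model that RefSeq and Ensembl chose together to represent a gene.

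The 3 dynamin genes proper share a feature that the choice by symbol did not use, an antisense microRNA gene of the miR-199 family in an intron. MIR199A2 (chr1:172144535-172144644) and MIR214 (chr1:172138798-172138907) lie on the DNM3OS strand in intron 14 of DNM3, MIR199B (chr9:128244721-128244830) lies in intron 15 of DNM1-202, and MIR199A1 (chr19:10817426-10817496) lies in intron 15 of DNM2-203, all on the reverse strand. No such gene was annotated in DNM1L. On the DNM3 strand, MIR3120 (chr1:172138808-172138888) overlaps MIR214, and its 81-base hairpin is the exact reverse complement of a stretch of the 110-base MIR214 hairpin. The mature sequences below are shown because they are what the antisense strand of these loci encodes. They come from RefSeq on GRCh38.p14, are written 5′ to 3′, and have the seed (bases 2 to 8) in capitals.

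hsa-miR-199a-3p (MIR199A2 in DNM3, chr1:172144554-172144575, and MIR199A1 in DNM2, chr19:10817429-10817450, reverse strand): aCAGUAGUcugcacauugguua
hsa-miR-199b-3p (MIR199B in DNM1, chr9:128244745-128244766, reverse strand): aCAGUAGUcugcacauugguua
hsa-miR-199a-5p (MIR199A2 in DNM3, chr1:172144592-172144614, and MIR199A1 in DNM2, chr19:10817469-10817491, reverse strand): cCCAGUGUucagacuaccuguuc
hsa-miR-214-3p (MIR214 in DNM3, chr1:172138816-172138837, reverse strand): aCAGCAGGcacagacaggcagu
hsa-miR-214-5p (MIR214 in DNM3, chr1:172138857-172138878, reverse strand): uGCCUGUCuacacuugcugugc
hsa-miR-3120-3p (MIR3120 in DNM3, chr1:172138858-172138878, forward strand): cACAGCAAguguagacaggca

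The seed CAGUAGU was shared by the 3p products of all 3 host genes. CCAGUGU was the seed of the 5p product listed for the copies in DNM3 and DNM2. A mature 5p product of MIR199B was not among the sequences used, but the MIR199B hairpin in DNM1 also holds the bases CCAGUGU. All 21 bases of miR-3120-3p, from the DNM3 strand, were complementary to miR-214-5p, from the DNM3OS strand. The microRNAs themselves were not analysed here, since none of their transcripts was among those quantified. The same held for the knockdown target: of the 6 annotated DNM3OS transcripts, 0 were among those quantified, so the targeted RNA could not be checked in any sample.

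**Figure D1:**
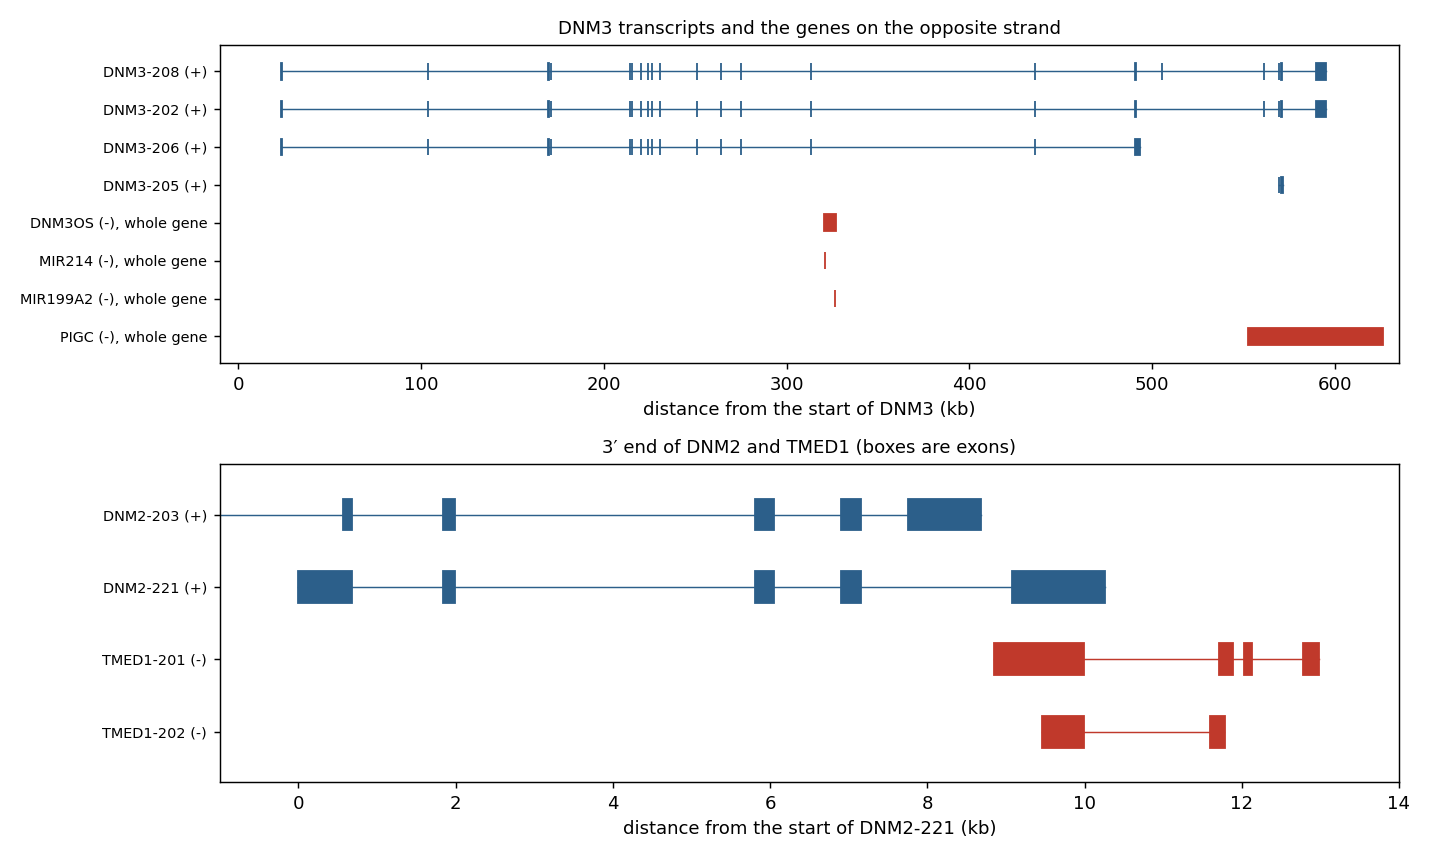
Transcript and gene models at 2 of the loci, drawn to scale from the annotation, with distance in kb on the horizontal axis, blue for the forward strand and red for the reverse strand. In the upper panel DNM3OS, MIR214 and MIR199A2 fall in the long intron 14 of DNM3-208 and DNM3-202, and PIGC covers the 3′ end of DNM3; in the lower panel the last exon of DNM2-221 lies over an exon of TMED1.

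Estimated counts per sample summed to between 1610937 and 1995888, and between 1523046 and 1868325 of these fell on annotated genes, so that 3 counts stood for 1.395 to 2.105 CPM (gene counts scaled to library size with TMM factors). Knockdown replicate 1 stood apart from the other samples. Its mean correlation with the others across genes was 0.866, against 0.9085 to 0.9287 for the rest. Its TMM factor was 1.176 against 0.9266 to 1.021, and 14.12% of its counts lay on retained-intron transcripts against 11.12% to 12.37%. Of the epithelial and ovarian cancer markers, ERBB2 had 311 to 872 counts and KRT8 had 1195 to 2566, while WT1 had at most 4 and MUC16 at most 2. Between these lay KRT18 with 38 to 165 counts, PAX8 with 26 to 46, EPCAM with 16 to 32 and KRT7 with 4 to 12. Of the markers of other cell types, the leukocyte gene PTPRC had 98 to 148 counts after knockdown and 91 to 113 in the controls. PECAM1 had 24 to 62 after knockdown and 29 to 43 in the controls. CD3E had at most 2 and ALB had 0, and the part of all these markers in the results was not tested. Ribosomal protein genes held 0.2299% to 0.5315% of a sample's counts, whereas the single gene PLLP held 15.68% to 22.25%. GAPDH had 27, 186 and 179 counts in knockdown replicates 1 to 3 and 414, 101 and 289 in the controls. ACTB had 36, 75 and 66 after knockdown and 112, 96 and 181 in the controls. Before scaling, ACTB was thus lower in all knockdown samples than in all controls. Over all genes tested, the CPM groups did not overlap for 7.97%. The library kit keeps the strand of the RNA, but whether the counting used it is not given in the sources used here, so reads from a dynamin gene and from a gene on the other strand cannot be told apart.

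None of the 4 dynamin genes passed the test for a change at the gene level. With edgeR's exact test, 0 of 4 were at least 2-fold different with an adjusted p below 0.05, against 1 of 11814 genes tested (0.00846%). The members had 0 unadjusted p-values below 0.05, against 345 among all genes, and edgeR's quasi-likelihood test and DESeq2 called 0 genes of any kind. The CPM ranges of knockdown and control overlapped for all 4, whereas the groups did not overlap for 7.97% of the genes tested. In a culture sequenced in bulk, fewer cells that express a gene and less of its RNA per cell cannot be told apart.

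DNM3 (ENSG00000197959), the host gene, had 34.89, 21.61 and 20.35 CPM in knockdown replicates 1 to 3 and 25.06, 19.64 and 20 CPM in the controls, from 29 to 75 counts a sample. Only knockdown replicate 1 lay above the highest control, and the other knockdown values lay within the control range. The means were 25.62 ± 8.053 CPM (SD, n = 3) and 21.57 ± 3.032 CPM (SD, n = 3), and edgeR's exact test gave a log2 fold change of 0.27 (SE 0.26, adjusted p = 1). Without knockdown replicate 1 the direction turned, to -0.031 on the log2 scale. Per length, DNM3 had 17.26, 14.69 and 12.49 TPM (the deposited abundance, which divides by length) after knockdown and 14.19, 5.772 and 12.39 TPM in the controls. The TPM groups overlapped as well, with control replicate 2 lowest, and an exact permutation test of log2(TPM + 0.5) gave p = 0.2, two-sided. With 20 ways to assign 3 of 6 samples, the smallest p that this test can give is 0.1.

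Protein-coding genes next to DNM3 had few counts. PIGC, an enzyme of glycosylphosphatidylinositol synthesis whose gene overlaps the 3′ part of DNM3 on the reverse strand (chr1:172370189-172444086), had 32, 22 and 14 counts after knockdown and 31, 24 and 22 in the controls. The log2 fold change of PIGC was -0.21 (SE 0.22, adjusted p = 1 by edgeR's exact test). The nearest protein-coding gene before DNM3, the methyltransferase gene METTL13, had 2 to 4 counts after knockdown and 4 to 9 in the controls. The nearest after it, C1orf105, had 2 to 14 counts and 4 to 13 counts, and both were below the filter for testing.

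DNM1 (ENSG00000106976), the dynamin of synaptic vesicle recycling, had 33.49, 22.96 and 26.66 CPM after knockdown and 19.37, 24.22 and 20.59 CPM in the controls. Knockdown replicates 1 and 3 lay above all controls and replicate 2 lay below control replicate 2, so the groups overlapped. The log2 fold change was 0.39 (SE 0.18, adjusted p = 1 by edgeR's exact test), from 27.71 ± 5.34 against 21.39 ± 2.526 CPM (SD, n = 3 each). Per length, DNM1 had 19.56, 16.55 and 18.19 TPM after knockdown and 14.02, 12.07 and 9.242 TPM in the controls. These TPM groups did not overlap, 1 of 4 members against 7.94% of the genes tested, and the difference of 0.62 in log2(TPM + 0.5) had p = 0.1 in an exact two-sided permutation test. That separation rested on DNM1-210, a transcript of 333 bases with 0.852 and 0.8821 estimated counts in knockdown replicates 2 and 3, worth 4.308 and 4.522 TPM, and 0 in the other samples. Without it the knockdown values were 19.56, 12.24 and 13.66 TPM, the groups overlapped, and the difference was 0.34 (p = 0.4 by the same exact test). On counts rescaled from TPM, DNM1-210 included, edgeR's exact test gave a log2 fold change of 0.60 with an adjusted p of 1, and without knockdown replicate 1 the value on plain counts was 0.23. The gene rested on 34 to 72 counts a sample, and its 16 annotated pseudogenes together had 1 count.

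DNM2 (ENSG00000079805), the ubiquitous dynamin of clathrin-mediated endocytosis, was the most abundant member by count. It had 337.2, 557.8 and 625.2 CPM after knockdown and 511.5, 508 and 543 CPM in the controls. The knockdown samples lay on both sides of the narrow control range, with replicate 1 far below it. Means were 506.8 ± 150.6 and 520.8 ± 19.24 CPM (SD, n = 3 each), and the log2 fold change was -0.04 (SE 0.27, adjusted p = 1 by edgeR's exact test). It became 0.19 without knockdown replicate 1. In TPM the knockdown samples had 364.2, 385.4 and 436.4 and the controls 414.1, 402.5 and 434.2, again overlapping.

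DNM1L (ENSG00000087470), the mitochondrial and peroxisomal fission GTPase, had 219.1, 209.4 and 240.7 CPM after knockdown and 313.9, 223.9 and 308.8 CPM in the controls. Control replicates 1 and 3 lay above all knockdown samples, while control replicate 2 lay below knockdown replicate 3. The means were 223 ± 16.03 and 282.2 ± 50.55 CPM (SD, n = 3 each), and the log2 fold change of -0.34 (SE 0.17) had an adjusted p of 1 by edgeR's exact test and p = 0.2 in an exact permutation test. In TPM the knockdown samples had 686.3, 535.4 and 550.7 and the controls 659, 627 and 708.9, with knockdown replicate 1 above control replicates 1 and 2. The difference was -0.98 on the log2 scale when only protein-coding transcripts were summed, and -0.80 without retained-intron transcripts, each with an adjusted p of 1.

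**Figure D2:**
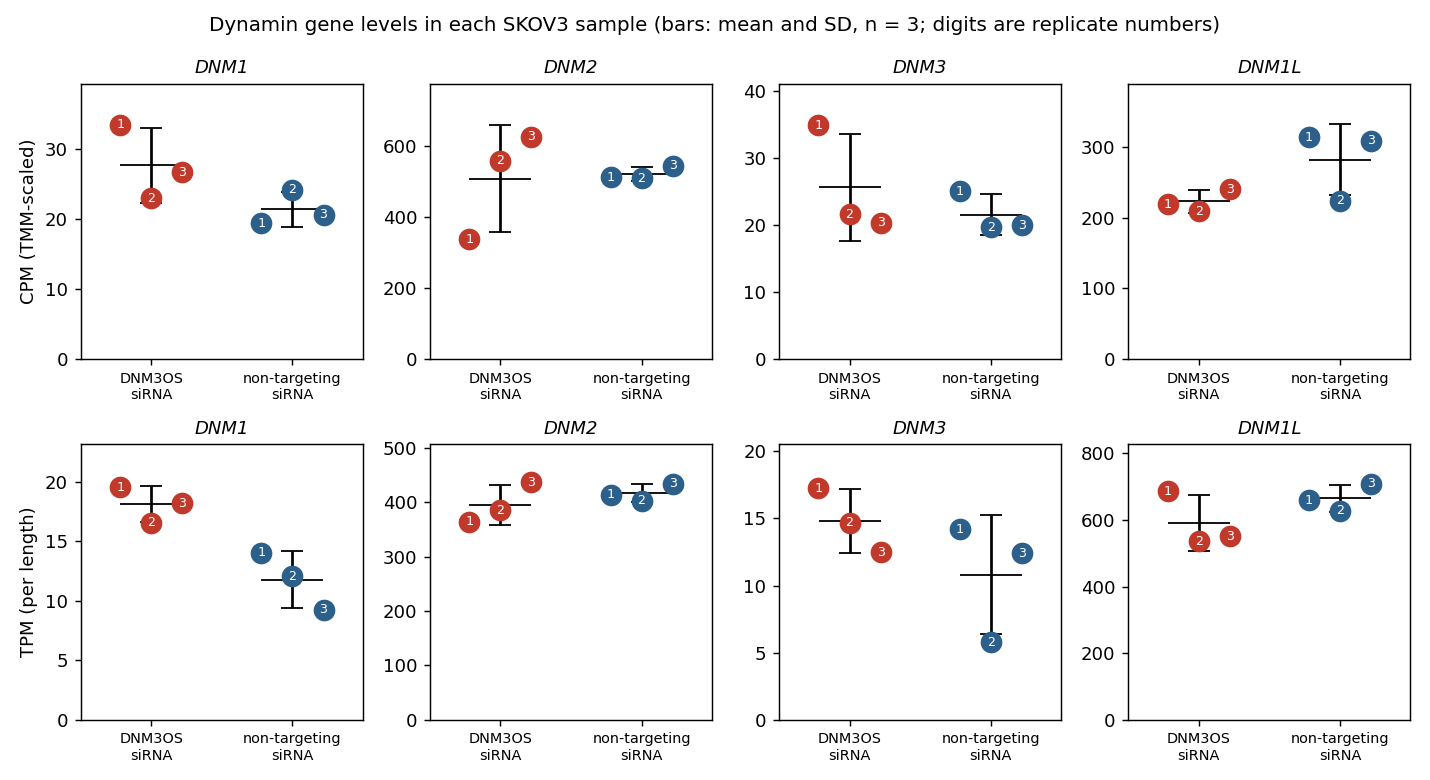
Level of each dynamin gene in every sample, as TMM-scaled CPM (upper row) and TPM (lower row), with knockdown in red and control in blue, the replicate number inside each point, and black bars for the mean and SD of 3 samples. The CPM groups overlap in all 4 panels, knockdown replicate 1 is the highest for DNM1 and DNM3 and the lowest for DNM2, and the TPM groups separate only for DNM1, which rests on a transcript with under 1 estimated count a sample.

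Per length, DNM1L was the highest, then DNM2, with DNM1 and DNM3 below both. Over all 6 samples DNM1L had 535.4 to 708.9 TPM (median 643) and DNM2 had 364.2 to 436.4 TPM (median 408.3), with no overlap between them. By CPM their order was the reverse, at 337.2 to 625.2 for DNM2 and 209.4 to 313.9 for DNM1L. DNM1 (9.242 to 19.56 TPM, median 15.28) and DNM3 (5.772 to 17.26 TPM, median 13.34) overlapped and could not be ordered. Both lay far below DNM2 in every sample by gene TPM, which sums transcripts of every class. That order did not carry over to protein-coding transcripts alone. These had 13.2 to 53.95 estimated counts a sample for DNM2 and 26 to 71 for DNM3, which overlapped. For DNM1L they had 30.26 to 203.3 and for DNM1 0 to 4.663. Among the genes tested, mean CPM placed DNM2 at percentile 98.75 and DNM1L at 97.01, against 54.98 for DNM1 and 53.58 for DNM3. Transcripts at least in part under a gene of the other strand held 98.71% of the DNM1L counts and 89.51% of the DNM2 counts. For DNM3 the share was 87.2% and for DNM1 3.734%. What those genes contribute to the levels was not tested.

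DNM3 was then set against each of the other members within the same sample, as the log2 ratio of TPM values with 0.5 added to each, which gave 3 ratios. Against DNM1 the knockdown minus control difference was -0.10 (SE 0.44, p = 0.8 in an exact two-sided permutation test), and against DNM2 it was 0.60 (SE 0.42, p = 0.2 by the same exact test), with overlapping groups both times. Against DNM1L the log2 ratio was -5.274, -5.141 and -5.407 after knockdown and -5.488, -6.645 and -5.782 in the controls. These groups did not overlap, and the difference of 0.70 (SE 0.36) reached the smallest exact permutation p possible, 0.1. Control replicate 2, where DNM3 had 5.772 TPM, was the lowest in each of the 3 ratios, and without it the difference was 0.36 against DNM1L and 0.25 against DNM2. Its low TPM came from the short DNM3-204 and DNM3-205, at 0 and 1.39 estimated counts there, while its 19.64 CPM was close to the 20 CPM of control replicate 3. Without these short transcripts the groups overlapped against DNM1L, with a difference of 0.32 (p = 0.6 in the exact permutation test), and the difference against DNM2 was 0.22. The direction against DNM1 turned when knockdown replicate 3, control replicate 1 or control replicate 3 was left out, to differences of 0.02, 0.01 and 0.20, and without DNM1-210 it was 0.18. With protein-coding transcripts only, the difference was 1.11 against DNM1L and -1.86 against DNM1, where DNM1 had 0 to 4.663 estimated counts a sample, so that the value depends on the 0.5 added.

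**Figure D3:**
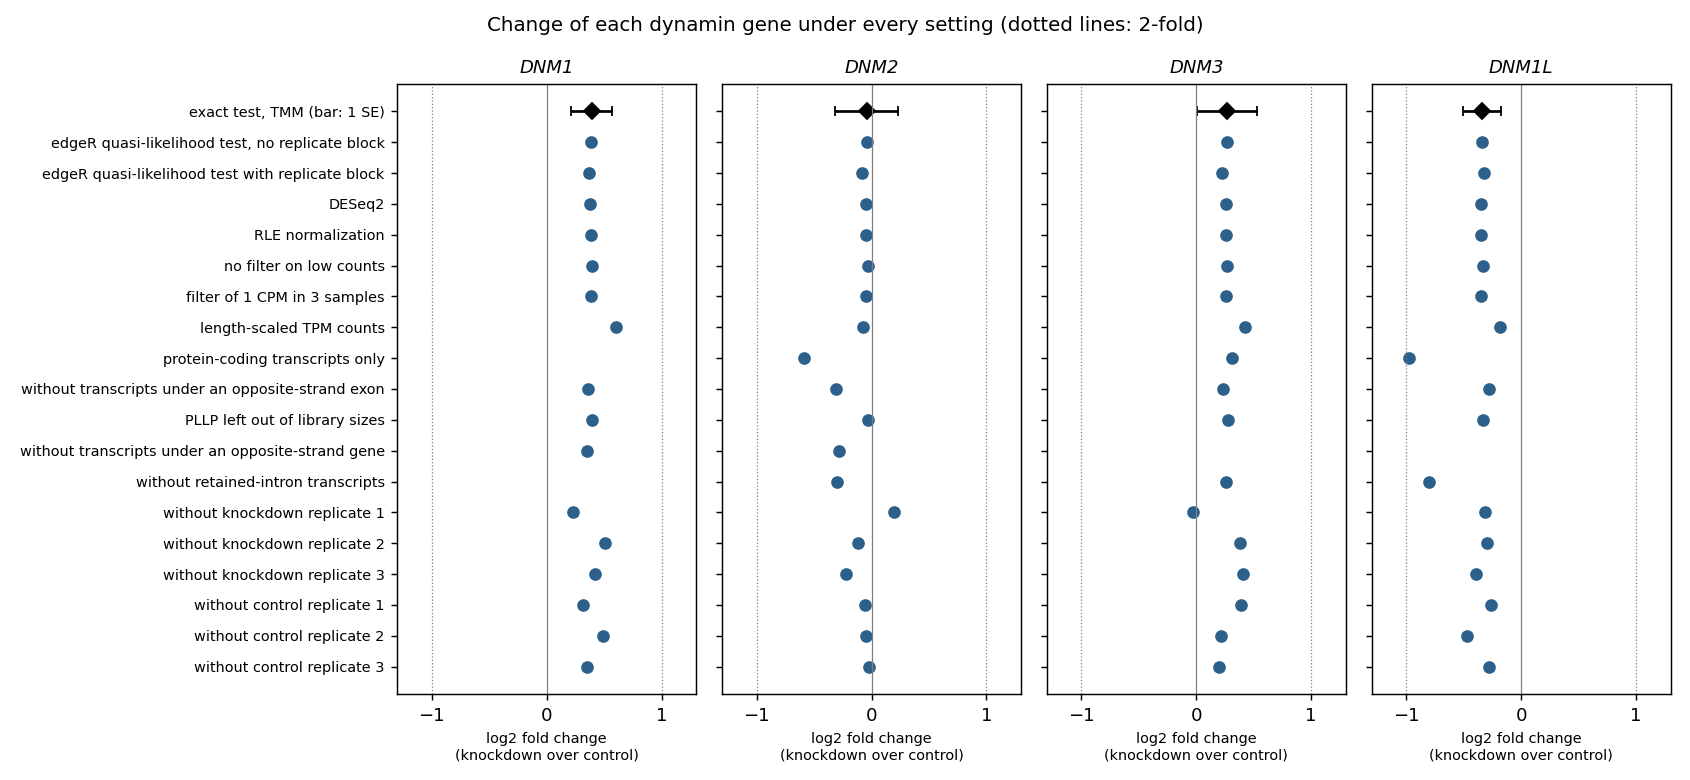
Log2 fold change of each dynamin gene (knockdown over control, horizontal axis) under each setting (vertical axis); the black diamond is the edgeR exact test with a bar of 1 SE, blue points are the other settings, and dotted lines mark 2-fold. A setting without a point is one where the gene was too low to test. All points lie within 2-fold, and DNM2 and DNM3 cross 0 when knockdown replicate 1 is left out.

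Transcript by transcript, DNM3 differed from the other members in the class of transcript that held its counts. The models quantified differed as well, with 7 protein-coding and 1 retained-intron model for DNM3. These numbered 9 and 3 for DNM1, 9 and 7 for DNM2, and 11 and 8 for DNM1L. What the set of models contributes to the shares was not tested. Protein-coding transcripts held 82.67% to 95.37% of the DNM3 counts of a sample (median 91.71%). They held 0% to 9.4% for DNM1, 1.82% to 6.007% for DNM2 and 8.839% to 36.92% for DNM1L, where most counts lay on transcripts annotated as retaining an intron. The retained-intron share had a median over samples of 90.4% for DNM1, 90.33% for DNM2, 75.85% for DNM1L and 8.288% for DNM3. Over protein-coding genes tested, the median gene had 0.2172% of its counts on such transcripts, and 10.46% of these genes had more than 70%. For each member and each class, knockdown and control shares overlapped.

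The reference transcripts held little of the dynamin signal. Each reference transcript was quantified at another length than its current model, for DNM1L-219 at 2487 bases against 4514. DNM1-202 and DNM1L-219, the MANE Select models of their genes, were at 0 in every sample. By counting error alone this allows up to 3 counts each, and the error of assigning reads among transcripts that share sequence is not in that limit. DNM2-203 had at most 1.381% of its gene's counts. DNM3-208 had 8.157% to 11.2%. Among protein-coding genes tested the median share on the reference transcript was 19.35%, and 44.21% of them had less than 12%.

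**Figure D4:**
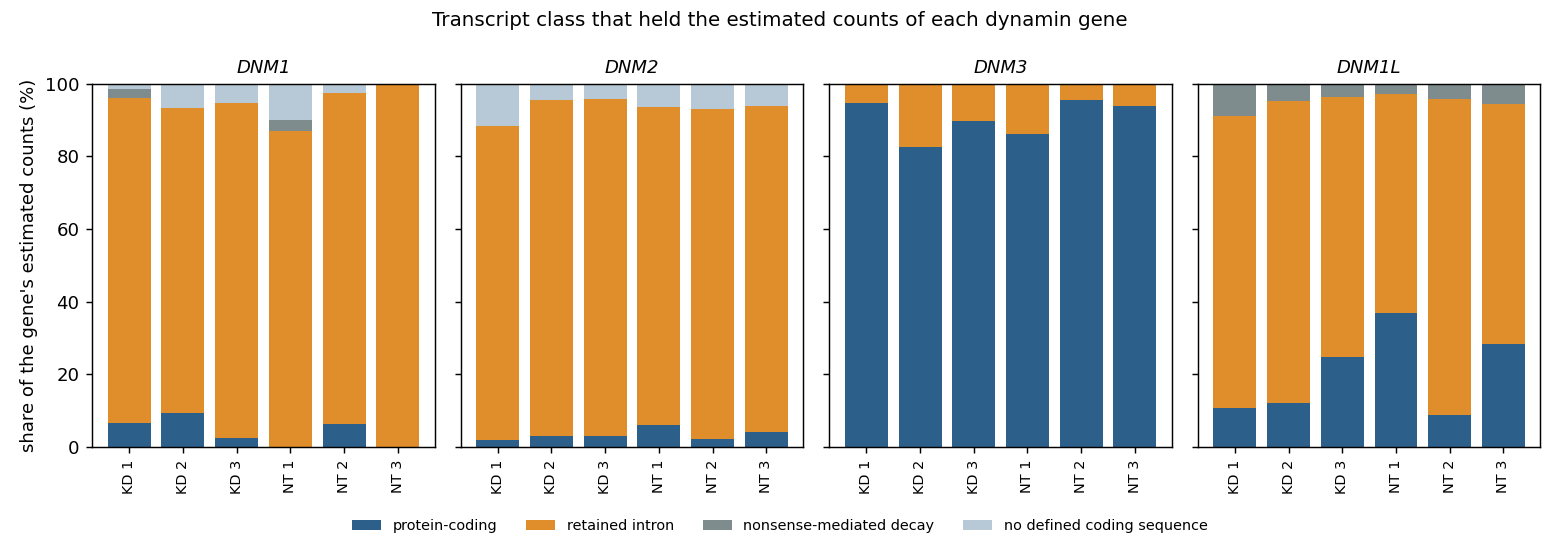
Share of each dynamin gene's estimated counts (vertical axis, %) on each annotated transcript class in the 3 knockdown (KD) and 3 control (NT) samples. Retained-intron transcripts fill most of each bar for DNM1, DNM2 and DNM1L, and protein-coding transcripts fill most of each bar for DNM3, in both groups.

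Of the 74 dynamin transcripts, 20 were at 0 in all samples, 32 reached an estimated count of 5 in at least 1 sample, and 11 were high enough to test. None of the 11 passed the threshold with edgeR's exact test (smallest adjusted p = 1), against 40 of 15767 transcripts tested (0.254%), and 0 had an unadjusted p below 0.05, against 355. The quasi-likelihood test also called 0 dynamin transcripts, as did DESeq2, which called 23 transcripts in all. Of the 11, 4 were higher and 7 lower in the knockdown samples. For 2 of them, DNM1L-212 and DNM1L-228, the groups of scaled values did not overlap, against 8.03% of the transcripts tested. The error of assigning reads among transcripts that share sequence is not part of these tests.

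DNM3-202, a protein-coding transcript of 7613 bases that lies entirely in exons of the reference transcript, was the leading DNM3 transcript, with 51.02% to 70.06% of the gene's counts. It had 46.48, 16.33 and 16.66 estimated counts after knockdown and 27.44, 21.02 and 20.09 in the controls. Before scaling to library size, knockdown replicate 1 was the highest and the other knockdown samples were the lowest, and the log2 fold change was 0.09 (SE 0.30). The estimated count of DNM3-202 was 6.253 to 6.347 times that of DNM3-208 in every sample, so the 2 did not vary separately. Their sum was 53.89, 18.94 and 19.32 after knockdown and 31.82, 24.38 and 23.25 in the controls.

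The shorter DNM3 transcripts were near the floor. DNM3-206, a protein-coding form that ends before the 3′ exons of the reference transcript, had 12, 4.592 and 3 estimated counts after knockdown and 4, 4.231 and 3.405 in the controls. DNM3-204 had 0 to 5.224 in all, and the retained-intron form DNM3-205 had 1.39 to 6.105. The other 3 DNM3 transcripts were at 0. No base of any DNM3 transcript listed here lay within DNM3OS, but 5575 of the 7613 bases of DNM3-202 lay within the span of PIGC on the other strand, and 0 within PIGC exons.

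DNM1 was carried by DNM1-204, a retained-intron transcript of 3286 bases with 78.15% to 94.31% of the gene's counts, of which 2335 bases lie in exons of the reference transcript and 951 outside. It had 61.95, 27.5 and 32.72 estimated counts after knockdown and 26.51, 34.03 and 33.19 in the controls. Before scaling to library size, only knockdown replicate 1 lay above the controls. The log2 fold change, from scaled counts, was 0.29 (SE 0.20). No base of DNM1-204 lay under a gene on the other strand.

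DNM2 was carried by DNM2-221, a retained-intron transcript of 2507 bases at the 3′ end of the gene, with 84.53% to 92.31% of the counts. It had 613.1, 755.6 and 822.6 estimated counts after knockdown and 778.3, 701.7 and 825.6 in the controls, and its log2 fold change was -0.05 (SE 0.33). Of its bases, 762 lie in exons of the reference transcript, and 910 lie over exons of TMED1, a gene of the secretory pathway that is read from the other strand (chr19:10832067-10836318). TMED1 itself had 314, 332 and 254 counts after knockdown and 294, 230 and 273 in the controls (log2 fold change 0.19, SE 0.18, adjusted p = 1 by edgeR's exact test). What TMED1 contributes to the DNM2 counts was not tested, and without the transcripts that lie over an exon of the other strand the log2 fold change of DNM2 was -0.31, with an adjusted p of 1.

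The other tested DNM2 transcripts were short models with no defined coding sequence. DNM2-216 had 39.29, 14.06 and 17.53 estimated counts after knockdown and 30.07, 22.37 and 26.26 in the controls. DNM2-217 had 42.84, 22.82 and 18.13 against 25.62, 30.34 and 26.73. Before scaling to library size, knockdown replicate 1 was the highest in both and the other knockdown samples lay below the control range. Among protein-coding DNM2 transcripts, all below the filter for testing, the model with the highest estimate differed between samples. Why it differed was not tested. DNM2-202 had 0, 5.964 and 0 (rounded) after knockdown and 25.07, 7.702 and 24.26 in the controls. Before scaling, all its knockdown estimates lay below all controls. DNM2-201 had 15.88 in knockdown replicate 3 and 0 elsewhere, and DNM2-205 had 1.791, 16.06 and 0 after knockdown and 8.387, 0 and 0 (rounded) in the controls. The 9 protein-coding models together had 13.2, 25.24 and 26.76 after knockdown and 53.95, 16.51 and 38.2 in the controls, and the sums overlapped.

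DNM1L was spread over many short retained-intron models near its 3′ end, where the gene overlaps YARS2, the mitochondrial tyrosyl-tRNA synthetase gene, on the other strand (chr12:32727490-32755897). DNM1L-228, of 755 bases, was the leading transcript with 18.03% to 27.34% of the counts. It had 114.3, 84.74 and 68.8 estimated counts after knockdown and 99.29, 92.5 and 110.8 in the controls, and after scaling all knockdown values lay below all controls (log2 fold change -0.24, SE 0.09, adjusted p = 1). DNM1L-212 had 83.07, 78.98 and 71.31 after knockdown and 103, 86.72 and 93.75 in the controls, lower in all knockdown samples also before scaling (log2 fold change -0.32, SE 0.16, adjusted p = 1 by edgeR's exact test).

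DNM1L-215 and DNM1L-222 had log2 fold changes of 0.01 each (SE 0.08 and 0.25), and DNM1L-218 had -0.60 (SE 0.32). All bases of DNM1L-212, DNM1L-215, DNM1L-218 and DNM1L-228 lay within the span of YARS2, and 0 of them within its exons. Of the DNM1L counts, 96.7% to 100% were on transcripts that lie at least in part under a gene of the other strand, while the median protein-coding gene tested had 6.724%. YARS2 had 63 to 92 counts after knockdown and 68 to 94 in the controls.

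Among protein-coding DNM1L transcripts, the largest estimates alternated between a pair. DNM1L-206 had 0.008254, 35.81 and less than 0.001 estimated counts after knockdown and 191.2, 22.88 and 142 in the controls, with a log2 fold change of -3.14 (SE 1.72, adjusted p = 1 by edgeR's exact test). DNM1L-203 had 45.69, 0 and 82.92 after knockdown and 0 (rounded) in all controls. Their sum was 45.7, 35.81 and 82.92 after knockdown and 191.2, 22.88 and 142 in the controls. The sums overlapped, since control replicate 2 was lower than every knockdown sample. Outside the pair, DNM1L-201 had 0 in all knockdown samples and 10.15, 7.375 and 4.627 in the controls. DNM1L-217 went the other way, with 4.584, 1.556 and 2.067 after knockdown and 0 in all controls. Both were below the filter for testing.

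Genes that work with the dynamins were then counted by role. Of 20 genes of the clathrin coat and its adaptors, 19 were tested, of which 7 were higher and 12 lower after knockdown and 0 passed the threshold, with a median log2 fold change of -0.11 against 0.00 over all genes tested. For 2 of the 19 the groups did not overlap, against 7.97% of all genes tested. PICALM, a clathrin assembly protein that senses membrane curvature, had 8, 12 and 12 counts after knockdown and 31, 14 and 34 in the controls. PICALM had a log2 fold change of -1.25 (SE 0.45), with an unadjusted p of 0.007848 and an adjusted p of 1 by edgeR's exact test. FCHO1, which helps to start coated pits, had 16 to 21 counts after knockdown and 13 to 15 in the controls (log2 fold change 0.35, SE 0.08, adjusted p = 1 by edgeR's exact test). AP2M1, a subunit of the AP-2 adaptor, had -0.85 (SE 1.12), and HIP1R, which links coats to actin, had 0.36 (SE 0.28).

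Of 22 BAR and SH3 proteins that bind dynamin or bend membrane at the same sites, 12 were tested, with 3 higher, 9 lower, 0 past the threshold and a median log2 fold change of -0.10. The extremes were BIN1, an amphiphysin that tubulates membrane, at -0.56 (SE 0.41) and the endocytic scaffold ITSN2 at 0.12 (SE 0.28). CTTN, the actin regulator cortactin, had -0.54 (SE 0.64) and FNBP1L, an F-BAR protein, had 0.06 (SE 0.25).

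Of 14 receptors and helpers of DNM1L in fission, 9 were tested, with 4 higher, 5 lower, 0 past the threshold and a median of -0.01. The outer-membrane fission protein FIS1 had a log2 fold change of -0.40 (SE 0.60) and the fission regulator MTFR1 had -0.23 (SE 0.13). MIEF1, a receptor for DNM1L, had 0.17 (SE 0.34) and the actin nucleator SPIRE1 had 0.45 (SE 0.93). Of 17 other large GTPases and related ATPases of the dynamin superfamily, 13 were tested, with 7 higher, 6 lower, 0 past the threshold and a median of 0.00. MFN2 and OPA1, which fuse the outer and inner mitochondrial membranes, had -0.60 (SE 0.87) and -0.51 (SE 0.76). ATL2, which fuses endoplasmic reticulum tubules, had 0.28 (SE 0.29), and EHD2, which sits at the necks of caveolae, had 0.29 (SE 0.12). It was the 1 of the 13 whose groups did not overlap, against 7.97% of all genes tested.

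**Figure D5:**
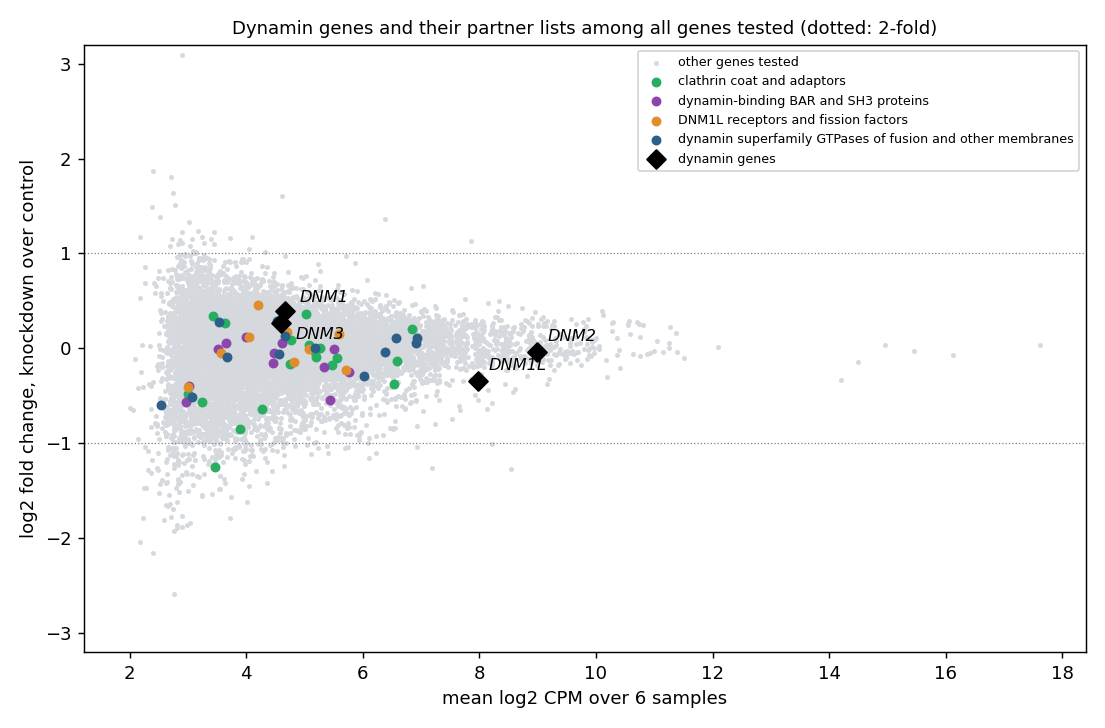
Log2 fold change (knockdown over control, vertical axis) against mean log2 CPM over 6 samples (horizontal axis) for all genes tested (grey), the 4 partner lists (coloured points) and the dynamin genes (black diamonds), with dotted lines at 2-fold. All 4 dynamin genes lie within 2-fold, DNM2 and DNM1L toward the right among abundant genes and DNM1 and DNM3 in the middle, and PICALM is the list gene below the lower dotted line.

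Across the 6 samples, log2 CPM of DNM3 ran against that of DNM2 (Pearson r = -0.90) and with that of DNM1 (r = 0.60), while r was -0.16 with DNM1L. These values describe 6 points that share libraries and depth, of which knockdown replicate 1 was the farthest from the rest. By the highest r over the 6 samples among 11814 genes tested, the genes most like DNM3 were VLDLR (0.998), SLCO1B3 (0.997) and GLRA1 (0.994). For DNM1 they were GHDC (0.999), LRRC69 (0.995) and TDGF1 (0.990), and for DNM2 they were BRD7 (0.999), PHC1 (0.998) and ENSG00000291225 (0.998). Mean counts were 14.83 for SLCO1B3, 14.33 for TDGF1 and 20.83 for GHDC, against 1208 for BRD7 and 1158 for PHC1. Values picked as the highest of so many genes over 6 samples are a description and do not show shared regulation.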

How the data were processed

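Stranded total RNA libraries depleted of ribosomal RNA were made from SKOV3 cells. The authors quantified paired reads with kallisto 0.43.0 against Ensembl transcripts of GRCh38. The deposited values for each transcript are an estimated count without normalization and a TPM. Bias correction and a strand option are not given in the sources used here. Transcripts were matched by identifier to GENCODE release 44 (155518 of 173259), which held 93.62% to 95.22% of a sample's counts. Of 74 dynamin transcripts, 54 kept the annotated length, and overlaps of the other 20 describe the current model.

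Estimated counts were summed per gene, rounded, filtered with filterByExpr (minimum count 10), TMM-scaled and tested with the exact test of edgeR 4.0.16 in R 4.3.3, two-sided, with Benjamini-Hochberg adjustment over all 11814 genes or 15767 transcripts tested. A call needed a 2-fold change and an adjusted p under 0.05. TMM factors entered each CPM value. Standard errors were computed from log2 CPM (prior count 2) over the 3 replicates of a group. Scripts were tested on simulated data. Named transcripts had an estimated count of at least 5 in 1 sample or more, and from each list the 2 lowest and 2 highest log2 fold changes were named. Two-sided exact permutation tests used all 20 assignments of the 6 samples. Limits on a count of 0 cover counting error only. Alternatives were other tests (DESeq2 1.42.0 among them), filters, scalings, transcript classes and each sample left out. Members and lists were chosen with earlier results of these data known. The genes most like DNM1L are not reported here.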

Additional observations from a re-analysis of the deposited data

How the results depend on the processing

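The number of dynamin genes past the threshold was 0 under all 18 alternatives. With 1 sample left out, the log2 fold change ran from -0.22 to 0.19 for DNM2 and from -0.031 to 0.41 for DNM3, the ends above 0 for DNM2 and below 0 for DNM3 coming without knockdown replicate 1. DNM1 stayed above 0 (0.23 to 0.60) in the 16 alternatives that could test it, and DNM1L below 0 (-0.98 to -0.19) in 17. DNM2 was -0.59 with protein-coding transcripts only. The DNM3 to DNM1 ratio difference ran from -0.50 to 0.20 with 1 sample left out and was -1.86 with protein-coding transcripts only, where DNM1 had too few counts to be tested, and 0.18 without DNM1-210. Without DNM3-204 and DNM3-205 the differences kept their sign, at -0.47 against DNM1, 0.22 against DNM2 and 0.32 against DNM1L. The number of dynamin transcripts past the threshold was 0 to 3 with 1 sample left out. The 3 came without knockdown replicate 2, where 107 of 18710 transcripts were called: DNM1L-203 (log2 fold change 9.07, adjusted p = 2.579e-09), DNM1L-206 (-9.93, adjusted p = 1.409e-05) and DNM2-202 (-7.31, adjusted p = 0.003187). DNM1L-203 and DNM2-202 are below the filter with all samples in, and a fitted value against a group near 0 depends on the prior count. Same-numbered samples had correlations of -0.40, -0.34 and 0.23 of their deviations from the group means. Differently numbered samples ran from -0.41 to 0.53. These values cannot settle whether replicate numbers pair the samples, since deviations within a group sum to 0. With a replicate block, the quasi-likelihood test gave 0.37 for DNM1, -0.09 for DNM2, 0.23 for DNM3 and -0.33 for DNM1L (adjusted p = 0.9989 each), and called 0 dynamin genes and 0 dynamin transcripts, as without it. DNM1 could not be tested on protein-coding transcripts only or without retained-intron transcripts, nor DNM3 and DNM1L without transcripts under a gene of the other strand. The settings without transcripts under an opposite-strand gene, without retained-intron transcripts, without DNM1-210 and without DNM3-204 and DNM3-205 were chosen after seeing the data. With 29 to 75 counts a sample, DNM3 and DNM1 limit what a difference could show.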
